A study of Mus musculus with 24 samples.

Results

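The 10 genes described here regulate or mark cartilage, bone and calcification, and they were followed in mouse aorta: Bmp2, Bmp4, Sox9, Runx1, Runx2, Alpl, Mgp, Chad, Cilp and Ibsp. The genes were chosen with earlier results of these data known. Their spots were taken by symbol, as the non-control spots of the array that carry these names, and the brightest probe stood for a gene. The 10 genes had 15 probes among the 55681 probes of the array. Of the 10, 8 entered the test beside 23503 tested genes in all, and these 8 were well above background on each of the 24 arrays. Runx2 and Ibsp were not well above background on all 3 arrays of any group and are given by their signals only.

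The study used C57BL/6 mice of 2 genotypes, IL-17 knockout and wild type, to ask about salt, IL-17 and aortic dissection, with 3 biological replicates per group by the design text and 1 array each. Each genotype was sampled with NaCl and infusion, with NaCl alone, with infusion alone and as a vehicle control. NaCl was 1% in the drinking water, given before and throughout 3 days of infusion. Infused mice received angiotensin II, a pressor peptide, together with BAPN (β-aminopropionitrile), which blocks the cross-linking of collagen and elastin by lysyl oxidases; the others received vehicle. All mice ate normal chow. Each infused group received both agents, so the effect of either alone cannot be told apart. The labels give neither age nor sex, do not say which IL-17 gene was deleted, and name the tissue as aorta without its segment, while the RNA protocol speaks of cells. Nothing in them limits the deletion to a cell type.

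Bone morphogenetic proteins are secreted ligands that signal through SMAD proteins, and they direct cartilage and bone formation. Sox9 is the transcription factor of chondrocytes and Runx2 that of osteoblasts. In arteries, smooth muscle cells can take up parts of these programs, and mineral deposition there is favoured by alkaline phosphatase, which removes the inhibitor pyrophosphate, and is held back by matrix Gla protein.

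Values are the background-subtracted signal as log2 minus the 75th percentile of the same array, so 0 is the level of a moderately bright spot, and levels are compared between groups and not between genes. That percentile was 270 to 772 before log2, and 51.1% to 60.8% of spots were well above background. Calls are at an adjusted p under 0.05 in limma, with Benjamini-Hochberg adjustment over all tested genes. The arrays lay on 4 slides, and no slide held both genotypes. Wild-type arrays with infusion alone lay on 1 slide and wild-type controls on another, and knockout arrays with NaCl and infusion likewise lay apart from knockout arrays with NaCl alone. Slide and infusion were joined there only through 1 other group that spanned both slides. In each genotype only the third array of that group lay on the slide of the infused arrays compared. Values with slide as a fixed block rest on that array there. Il17a and Il17f were well above background on 0 of 24 arrays, so they check nothing about the genotype labels. The 6 smooth muscle markers were above background on every array, as were at least 5 of 6 fibroblast markers.

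**Figure D1:**
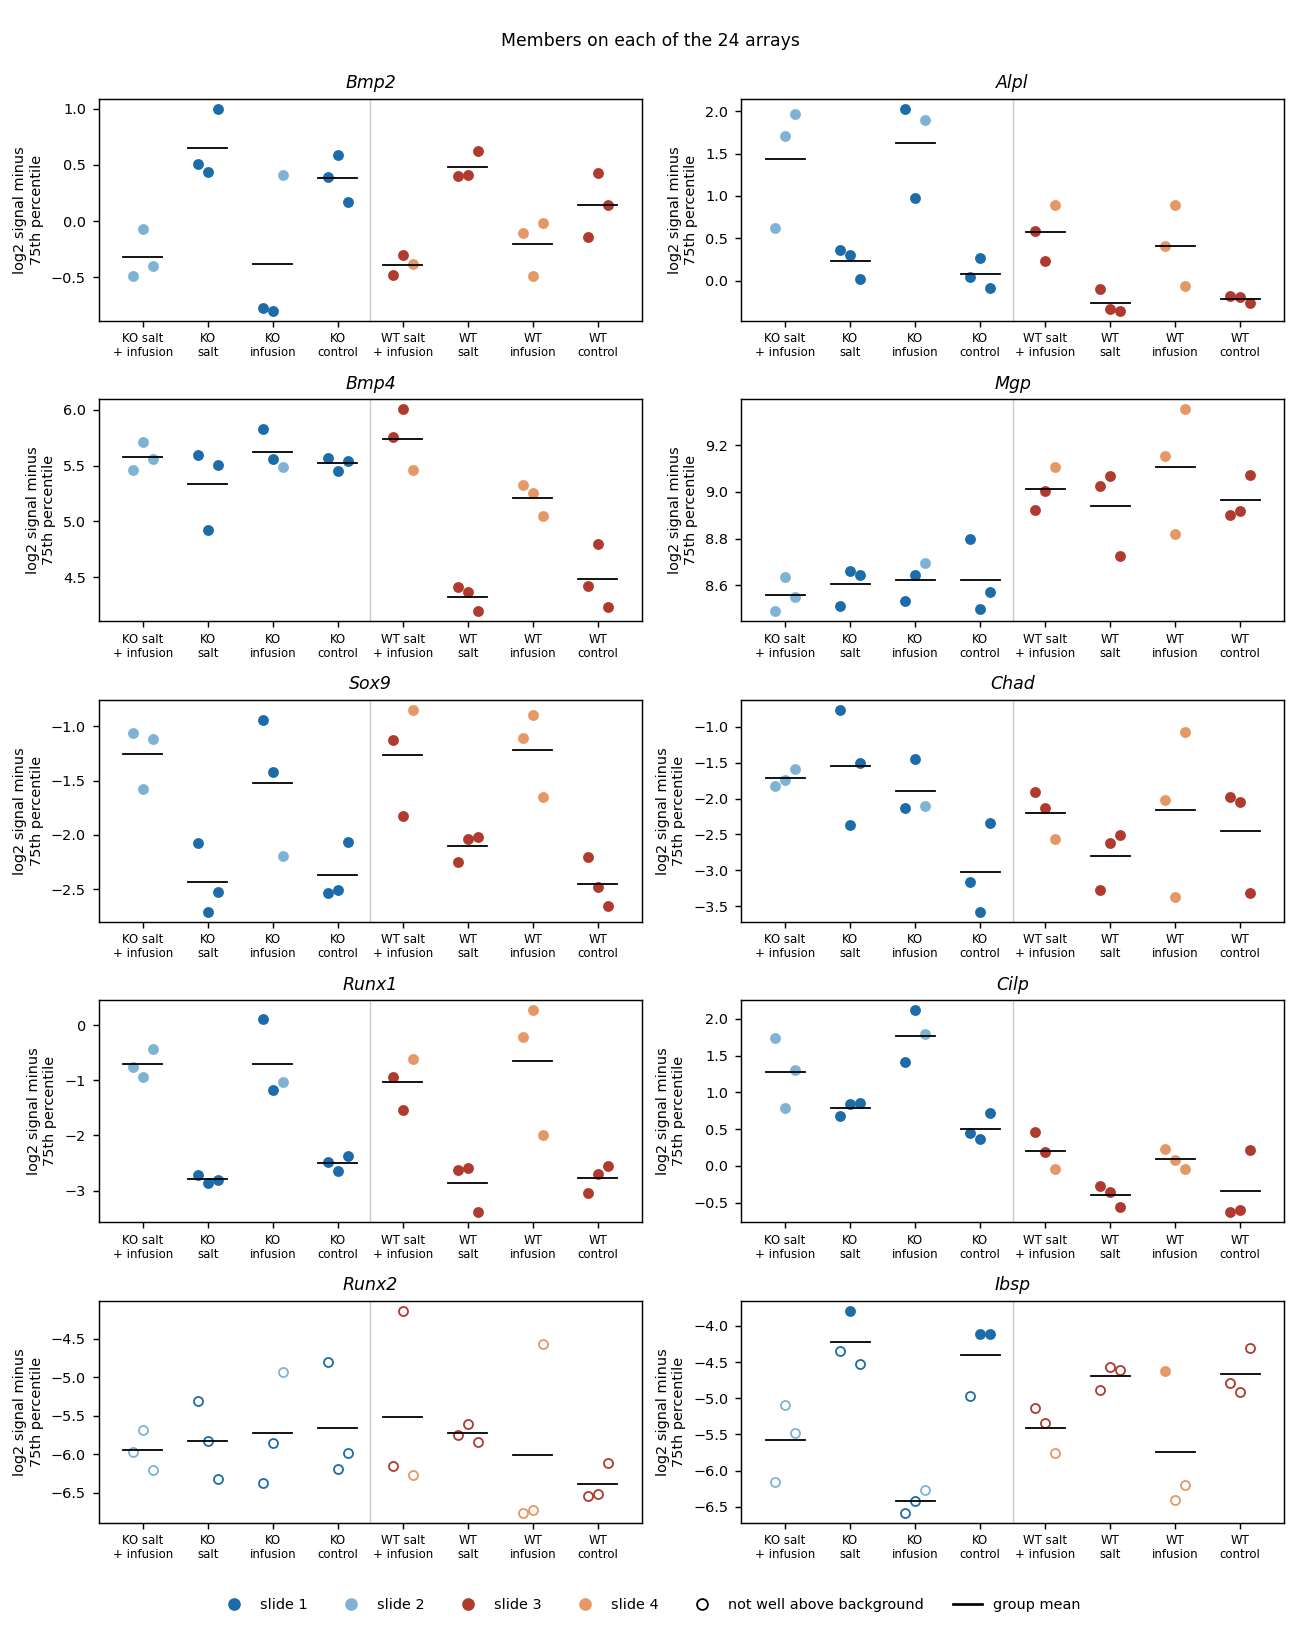
Normalised log2 signal of the 10 genes (vertical axis, a scale of its own for each gene) on each of the 24 arrays, by group; colour gives the slide, open points are not well above background and bars are group means. On the probe shown, Runx1 on the 12 infused arrays lies above all arrays without infusion, and Bmp4 is low on wild-type arrays without infusion only.

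Infusion was the treatment under which these genes moved. Runx1 and Sox9 were called higher in all 4 infusion comparisons. Alpl was called higher in 3 and Bmp2 called lower in 3, while Bmp4 rose in both wild-type comparisons. Cilp rose in knockout mice on plain water. In knockouts on NaCl, 4 of the 8 measured genes were called (3 higher, 1 lower), beside 25.3% of all tested genes. In knockouts on plain water 5 were called (4 higher, 1 lower), beside 30.6%. In wild types on NaCl 5 were called (4 higher, 1 lower), beside 32.9%, and in wild types on plain water 3 were called, all higher, beside 25.9%. The median difference of the 8 genes in the same order was 0.36, 0.99, 0.72 and 0.53 log2 units, against medians over all genes of -0.02, -0.05, -0.05 and -0.02. In whole aorta, a change in the number of cells of a type and a change in RNA per cell cannot be told apart.

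**Figure D2:**
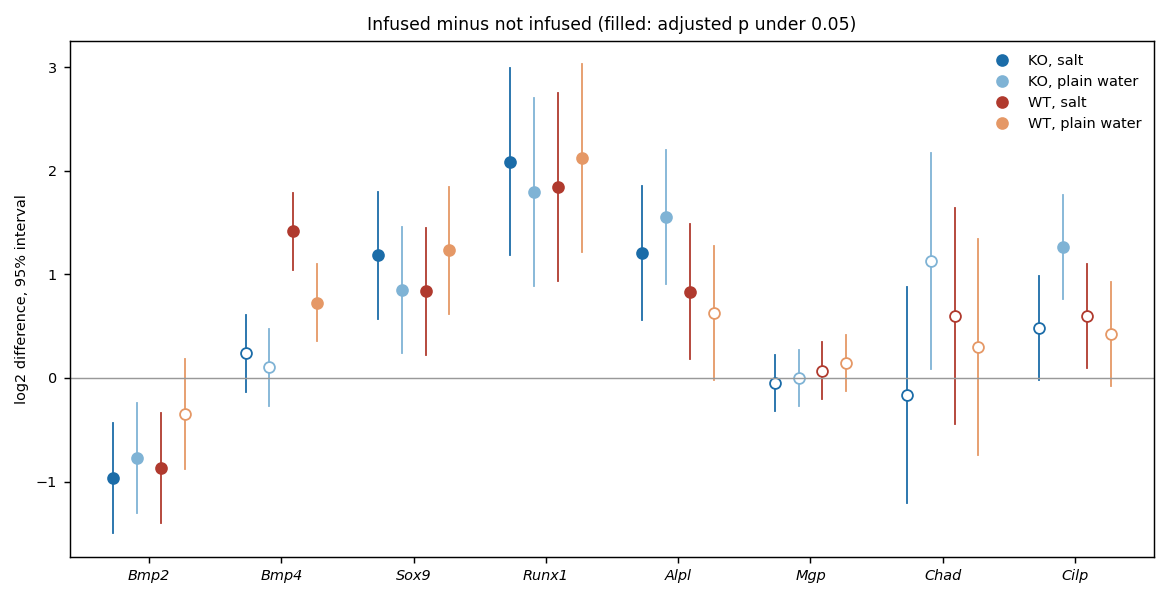
Log2 difference of infused minus non-infused mice (vertical axis) with its 95% interval for the 8 measured genes in the 4 infusion comparisons; filled points had an adjusted p under 0.05. Runx1 and Sox9 are filled in all 4 comparisons, and Bmp4 only in wild types.

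Bmp2, a ligand that induces bone, was lower with infusion. Its probe lies at chr2:133388260-133388319 on the array's build, mm9, as do the other probe positions given here. Knockouts on NaCl had -0.48, -0.07 and -0.40 with infusion, against 0.51, 0.44 and 1.00 without it. The groups did not overlap, and the difference was -0.97 (SE 0.25, adjusted p = 0.0103). Wild types on NaCl had -0.48, -0.30 and -0.38 with infusion, against 0.40, 0.41 and 0.63 without it, again without overlap (-0.87, SE 0.25, adjusted p = 0.015). In knockouts on plain water the infused arrays held -0.77, -0.80 and 0.41 and the controls 0.40, 0.59 and 0.17. The third infused array, alone of its group on another slide, lay among the controls; the difference was -0.77 (SE 0.25, adjusted p = 0.0281), and -1.17 (adjusted p = 0.00339) among arrays of the slide that held the other infused arrays and the controls. Wild types on plain water had -0.10, -0.49 and -0.01 with infusion and -0.14, 0.43 and 0.14 without it, which overlap (-0.35, adjusted p = 0.341). In knockouts on NaCl a slide block gave -2.17 (adjusted p = 0.000175). The call in knockouts on plain water was lost without control 1 or 2 or infused array 1 or 2 (adjusted p up to 0.16), and with only the compared groups fitted (0.201). It was also lost in wild types on NaCl without the NaCl array 3 (-0.79, 0.0583) and in knockouts on NaCl without the NaCl array 3 (-0.79, 0.0554).

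Bmp4, a ligand that like Bmp2 acts through type I receptors and SMADs, differed most clearly in wild types (probe at chr14:47003391-47003450). On NaCl, infused wild-type arrays held 5.76, 6.00 and 5.46, against 4.41, 4.37 and 4.20 without infusion. Every infused array lay above every array without infusion, by 2.67-fold on average (1.41 log2 units, SE 0.18, adjusted p = 4.35e-05). On plain water, infused wild types had 5.33, 5.25 and 5.05, against 4.42, 4.80 and 4.23 in their controls. These did not overlap either, and the difference was 0.73 (SE 0.18, adjusted p = 0.00664). Knockouts on NaCl had 5.46, 5.71 and 5.56 with infusion and 5.59, 4.92 and 5.50 without it. Knockouts on plain water had 5.83, 5.56 and 5.49 with infusion and 5.57, 5.45 and 5.54 without it. Both knockout pairs overlapped, with differences of 0.24 (95% interval -0.13 to 0.61, adjusted p = 0.342) and 0.10 (-0.27 to 0.48, 0.71). On the slide that held wild-type NaCl arrays with and without infusion the difference was 1.55 (adjusted p = 0.00172). A slide block gave a plain-water difference in wild types of 1.14 with an adjusted p of 0.0793, and it was 0.0714 with only the compared groups fitted. A second Bmp4 probe was above background on 0 arrays.

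Sox9, the chondrocyte factor, rose in each infusion comparison (probe at chr11:112648809-112648868). Knockouts on NaCl had -1.06, -1.58 and -1.12 with infusion, against -2.08, -2.71 and -2.52 without it (1.18, SE 0.29, adjusted p = 0.0071). Wild types on plain water had -1.11, -0.90 and -1.65 with infusion, against -2.21, -2.48 and -2.66 (1.23, SE 0.29, adjusted p = 0.00555). In these comparisons and in wild types on NaCl the groups did not overlap. Wild types on NaCl had -1.13, -1.82 and -0.85 with infusion, against -2.25, -2.04 and -2.02 (0.83, SE 0.29, adjusted p = 0.0355). Knockouts on plain water had -0.94, -1.42 and -2.19 with infusion, against -2.53, -2.51 and -2.06 (0.85, SE 0.29, adjusted p = 0.0343). Here the third infused array, on another slide, lay within the control range, and among arrays of the shared slide the difference was 1.18 (adjusted p = 0.00817). After quantile normalization the value over all arrays was 0.79 (adjusted p = 0.0737). With slide as a block the values were 0.60 (adjusted p = 0.493) in wild types on plain water, 0.63 (0.0932) in wild types on NaCl and 2.19 (0.00126) in knockouts on NaCl. The last value rests on the third knockout array with infusion alone, the only array that joins the knockout slides. The call in knockouts on plain water was lost without control 1 or 2 or infused array 1 or 2 (adjusted p up to 0.213), and that in wild types on NaCl without any of the arrays with NaCl alone or without infused array 1 or 3 (up to 0.17). With only the compared groups fitted, the adjusted p in knockouts on plain water was 0.149. With no filter on dim probes it was 0.0554 there and 0.0564 in wild types on NaCl.

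Runx1, a transcription factor of blood cell formation that is also active in early cartilage, changed by the largest amount of the 8 genes in each infusion comparison (probe at chr16:92605785-92605844). Wild types on plain water had -0.20, 0.27 and -2.00 with infusion, against -3.05, -2.69 and -2.55 in controls. Knockouts on NaCl had -0.75, -0.95 and -0.43 with infusion, against -2.72, -2.86 and -2.80 without it. No infused array of any group fell to the level of an array without infusion, though the third wild-type array with infusion alone stood well below the other two. The differences were 2.12 (SE 0.43, adjusted p = 0.00208) in wild types and, for knockouts on NaCl, 2.09 (SE 0.43, adjusted p = 0.00228) (4.35-fold and 4.25-fold). Wild types on NaCl had -0.94, -1.54 and -0.60 with infusion, against -2.63, -2.59 and -3.39 (1.84, SE 0.43, adjusted p = 0.00406). Knockouts on plain water had 0.12, -1.18 and -1.04 with infusion, against -2.48, -2.65 and -2.37 (1.80, SE 0.43, adjusted p = 0.00467). A second Runx1 probe, also above background on 24 arrays, had -0.64, -0.28 and -2.71 in wild types with infusion alone and -3.06, -2.61 and -2.61 in their controls, so that on this probe the third array lay inside the control range. With slide as a block the wild-type value on plain water was 1.49 (adjusted p = 0.352), and with only the compared groups fitted it had an adjusted p of 0.0693. Among arrays of 1 slide the difference was 1.97 (adjusted p = 0.00355) in knockouts on plain water and 1.63 (0.00819) in wild types on NaCl. No single array decided a Runx1 call: with each left out in turn the adjusted p was at most 0.0405.

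Runx2, the osteoblast factor, was not detected. Its 3 probes were well above background on 0 of 24 arrays, with signals of the brightest between -6.76 and -4.14, and the lowest signals well above background on these arrays were -5.37 to -4.13. No direction can be read for it.

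Alpl encodes tissue-nonspecific alkaline phosphatase, the enzyme that splits pyrophosphate (probe at chr4:137297658-137297716). Knockouts on plain water had 2.03, 0.97 and 1.89 with infusion, against 0.05, 0.27 and -0.09 in controls. All 3 infused arrays lay above the controls, by 2.93-fold (1.55, SE 0.31, adjusted p = 0.00136). Knockouts on NaCl had 0.63, 1.70 and 1.97 with infusion, against 0.36, 0.30 and 0.02 without it (1.20, SE 0.31, adjusted p = 0.00898). Wild types on NaCl had 0.59, 0.23 and 0.90, against -0.10, -0.33 and -0.35 (0.83, SE 0.31, adjusted p = 0.0456). Wild types on plain water had 0.41, 0.90 and -0.07, against -0.18, -0.19 and -0.26. None of the 4 pairs overlapped, but the last difference missed the threshold (0.63, 95% interval -0.02 to 1.27, adjusted p = 0.146). With slide as a block the value was 0.81 (adjusted p = 0.264) in knockouts on NaCl and 0.67 (0.162) in wild types on NaCl, where arrays of 1 slide alone gave 0.67 (0.0134). The call in wild types on NaCl was lost without any array with NaCl alone or without infused array 1 or 3 (adjusted p up to 0.177), and that in knockouts on NaCl without infused array 3 (0.94, 0.0588).

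Mgp encodes matrix Gla protein, which inhibits calcification (probe at chr6:136821125-136821184). It was bright on every array, from 8.49 to 9.35, and infusion moved it little. Its 4 infusion differences lay between -0.05 and 0.14, and none was called. The widest 95% limits of these differences were -0.32 and 0.41.

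Chad encodes chondroadherin, a cartilage matrix protein, and Cilp cartilage intermediate layer protein, a matrix protein that binds TGF-β (probes at chr11:94430136-94430195 and chr9:65128007-65128066). Cilp in knockouts on plain water was 1.41, 2.12 and 1.79 with infusion, against 0.44, 0.36 and 0.72 in controls. The groups were well apart (1.27, SE 0.24, 2.41-fold, adjusted p = 0.000954). Cilp in wild types on NaCl was 0.46, 0.19 and -0.04 with infusion, against -0.27, -0.36 and -0.56, without overlap but with an adjusted p of 0.0602 (0.60). This value was 0.68 with an adjusted p of 0.0374 after quantile normalization. Cilp differed by 0.48 (adjusted p = 0.147) in knockouts on NaCl and by 0.43 (0.202) in wild types on plain water. Each of these passed the threshold without 1 array: 0.73 (0.0405) without the second knockout array with NaCl and infusion, and 0.70 (0.0369) without the third wild-type control. Chad spread widely within groups, by an SD of up to 1.16 in wild types with infusion alone, and its 4 differences of -0.17 to 1.13 were not called. In knockouts on plain water Chad was -2.14, -1.45 and -2.11 with infusion, against -3.16, -3.57 and -2.34, which did not overlap (1.13, SE 0.50, adjusted p = 0.0951).

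Ibsp encodes bone sialoprotein, a protein of mineralised matrix. Its brightest probe was well above background on 4 of 24 arrays, at most 2 in a group, and its second probe on 0. Knockouts on plain water had -6.58, -6.42 and -6.26 with infusion, none above background, against -4.97, -4.12 and -4.11 in controls, of which 2 of 3 were above background. Knockouts on NaCl had -6.15, -5.09 and -5.49 with infusion, against -4.34, -3.79 and -4.53, of which 1 of 3 was above background. Wild types on plain water went the other way in detection. They had -4.63, -6.41 and -6.20 with infusion, only the first above background, against -4.78, -4.91 and -4.30 in controls, none above background. Wild types on NaCl had -5.14, -5.35 and -5.76 with infusion, against -4.89, -4.57 and -4.60, none above background. No fold is given, since some or all arrays of each group were not well above background. The gene did not enter the test.

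Upstream sequences are shown for both start sites of Runx1, called with infusion in all 4 comparisons, and for Bmp4, Alpl and Cilp, called in 2, 3 and 1 of them. RefSeq's GRCm38.p6 table held 9 promoters of 7 of the 10 genes, and none of Sox9, Bmp2 or Mgp, so nothing is shown for these. The 250 bases before each start were searched on both strands for TGTGGT (RUNX), AACAAT (SOX), GGCGCC (SMADs activated by BMPs), TGANTCA (AP-1), TATAAA and GGGCGG (GC box), and matches are in capitals, 5′ to 3′.
Bmp4, minus strand, chr14:46390670-46390919: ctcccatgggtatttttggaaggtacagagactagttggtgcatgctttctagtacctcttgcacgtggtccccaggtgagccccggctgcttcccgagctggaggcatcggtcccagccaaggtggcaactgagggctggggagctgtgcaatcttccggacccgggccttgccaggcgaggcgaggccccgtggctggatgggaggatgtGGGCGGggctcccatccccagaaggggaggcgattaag
Alpl, upstream start, minus strand, chr4:137796385-137796634: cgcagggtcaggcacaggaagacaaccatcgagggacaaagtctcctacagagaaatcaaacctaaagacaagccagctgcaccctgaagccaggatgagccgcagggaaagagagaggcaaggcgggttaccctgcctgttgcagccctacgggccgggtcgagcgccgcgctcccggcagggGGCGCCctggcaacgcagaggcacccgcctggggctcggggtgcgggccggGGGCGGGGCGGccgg
Alpl, downstream start, minus strand, chr4:137766476-137766725: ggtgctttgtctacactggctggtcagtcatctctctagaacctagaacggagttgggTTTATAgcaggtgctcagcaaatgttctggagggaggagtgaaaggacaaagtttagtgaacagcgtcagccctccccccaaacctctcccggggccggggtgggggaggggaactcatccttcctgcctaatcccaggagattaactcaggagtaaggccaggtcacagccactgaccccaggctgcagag
Cilp, plus strand, chr9:65264930-65265179: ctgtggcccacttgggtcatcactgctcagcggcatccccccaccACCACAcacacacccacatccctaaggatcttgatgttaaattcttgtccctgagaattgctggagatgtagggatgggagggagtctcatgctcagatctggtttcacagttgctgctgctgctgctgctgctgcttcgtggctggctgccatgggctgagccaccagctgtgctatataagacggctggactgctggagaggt
Runx1, upstream start, minus strand, chr16:92826075-92826324: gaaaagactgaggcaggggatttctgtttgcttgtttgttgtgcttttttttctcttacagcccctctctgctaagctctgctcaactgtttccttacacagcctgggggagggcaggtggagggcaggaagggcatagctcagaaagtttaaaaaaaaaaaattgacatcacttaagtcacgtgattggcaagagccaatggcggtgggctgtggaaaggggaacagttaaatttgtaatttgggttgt
Runx1, downstream start, minus strand, chr16:92697330-92697579: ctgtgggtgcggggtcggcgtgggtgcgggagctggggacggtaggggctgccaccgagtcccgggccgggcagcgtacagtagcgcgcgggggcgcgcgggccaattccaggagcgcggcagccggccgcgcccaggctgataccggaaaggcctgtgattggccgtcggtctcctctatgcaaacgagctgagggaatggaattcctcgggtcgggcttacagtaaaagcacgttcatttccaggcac
The RUNX letters were found in 2 of the 9 windows, those of Cilp (at -205 from the start) and Runx2 (-80), and in 14% of all 32851 promoters. The SMAD letters were found in the upstream Alpl window alone (-66), against 9.59% of all promoters, and TATAAA in 3 windows (12.4%), those of downstream Alpl, Chad and Ibsp. GC boxes lay in 3 windows (32.7%), those of Bmp4, Chad and upstream Alpl, where 2 overlapping copies run together. No SOX (9.42%) or AP-1 (6.75%) letters were in the 9 windows. Neither Runx1 window held any of the 6 motifs, though their base composition differed, with 45.6% G and C upstream and 67.6% downstream. The array probes do not separate these start sites, so a signal cannot be given to either.

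NaCl moved none of the 8 genes past the threshold. With NaCl alone, limma called 0 of 8 in knockouts and 0 of 8 in wild types, beside 0% of all genes in each. At an unadjusted p under 0.05 there was 1 gene in knockouts and 0 in wild types, beside 714 and 499 of all 23503 genes. The 1 gene was Chad, at -0.77, -2.37 and -1.51 in knockouts on NaCl and -3.16, -3.57 and -2.34 in knockout controls, which overlap at -2.37 and -2.34 (1.48, SE 0.50, adjusted p = 1). With NaCl on top of infusion, limma also called 0 of 8 in each genotype, beside 0.00425% of all genes in knockouts and 0% in wild types. At an unadjusted p under 0.05 there was 0 in knockouts and 1 in wild types, beside 1067 and 1354 of all genes. That gene was Bmp4, whose infused wild types on NaCl all lay above those on plain water (0.53, 95% interval 0.16 to 0.90, adjusted p = 0.807). On the slide that held both groups, 1 array with NaCl differed from the 3 without it by 0.25, a value with no replicate of the NaCl arm. For Runx1 and Sox9 the intervals of the NaCl difference during infusion ran from -0.91 to 0.90 and -0.35 to 0.88 in knockouts and from -1.29 to 0.52 and -0.66 to 0.56 in wild types.

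Knockouts and wild types differed in Bmp4, Cilp and Mgp among vehicle controls, but genotype and slide cannot be told apart. Of the 8 genes 3 were called, beside 37.2% of all genes. Bmp4 in controls was 5.57, 5.45 and 5.54 in knockouts and 4.42, 4.80 and 4.23 in wild types, with no overlap (1.04, SE 0.18, 2.05-fold, adjusted p = 0.000196). Cilp was 0.44, 0.36 and 0.72 in knockout controls and -0.63, -0.59 and 0.21 in wild-type controls (0.84, SE 0.24, adjusted p = 0.0101). Without the first wild-type control the Cilp difference was 0.70 (adjusted p = 0.0547). Under NaCl and infusion 3 of 8 were called, beside 28.6% of all genes: Cilp was higher in knockouts (1.07, SE 0.24, adjusted p = 0.00289), as was Alpl (0.86, SE 0.31, 0.0444), while Bmp4 differed by -0.16 (95% interval -0.54 to 0.21, 0.521). The Alpl groups overlapped, and its call was lost without knockout array 2 or 3 or wild-type array 1 or 2 (adjusted p up to 0.2) and after quantile normalization (0.80, 0.0625). Mgp was lower in knockouts by this scaling, by -0.34 (adjusted p = 0.0451) in controls and -0.45 (0.0142) under NaCl and infusion, but it turned to 0.0080 (0.961) and 0.21 (0.155) after quantile normalization. By the 75th percentile the Mgp call in controls was also lost without any 1 wild-type control or without knockout control 2 or 3 (adjusted p up to 0.158), and that under NaCl and infusion without knockout array 1 (-0.42, 0.0586). The share of higher calls among all called genes moved with it, at 50.8% after quantile normalization and 38.8% without it in controls, and 47.6% and 36.8% under NaCl and infusion. With slide as a random block, the control differences were 1.09 for Bmp4 (adjusted p = 0.0235) and 0.95 for Cilp (0.17), and under NaCl and infusion the adjusted p of Cilp was 0.0782. Of 6 macrophage markers 3 were higher in knockout controls, with summed levels, in multiples of the 75th percentile, of 60.1 to 71.1 against 33.2 to 48.0 in wild-type controls, and 1 under NaCl and infusion (117 to 136 against 78.0 to 113). Of 6 smooth muscle markers 2 were lower in knockout controls (1651 to 1960 against 2193 to 2856) and 3 under NaCl and infusion (1182 to 1531 against 2135 to 2491), and of 6 fibroblast markers 2 were higher in each. Summed levels weigh the brightest genes most, Csf1r and Lgals3 among the macrophage markers and Acta2, Tagln and Cnn1 among those of smooth muscle. Of 5 endothelial markers 2 were higher in knockout controls (Pecam1 by 0.91, Tie1 by 1.13) and 1 lower under NaCl and infusion (Kdr, -0.54). Of 4 T cell markers 1 was lower in each (Cd3e, -0.82 and -1.20), of 3 bone markers 1 was higher in controls, and of 6 cartilage markers 1 was lower under NaCl and infusion (Acan). Their part in these genotype results was not tested.

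**Figure D3:**
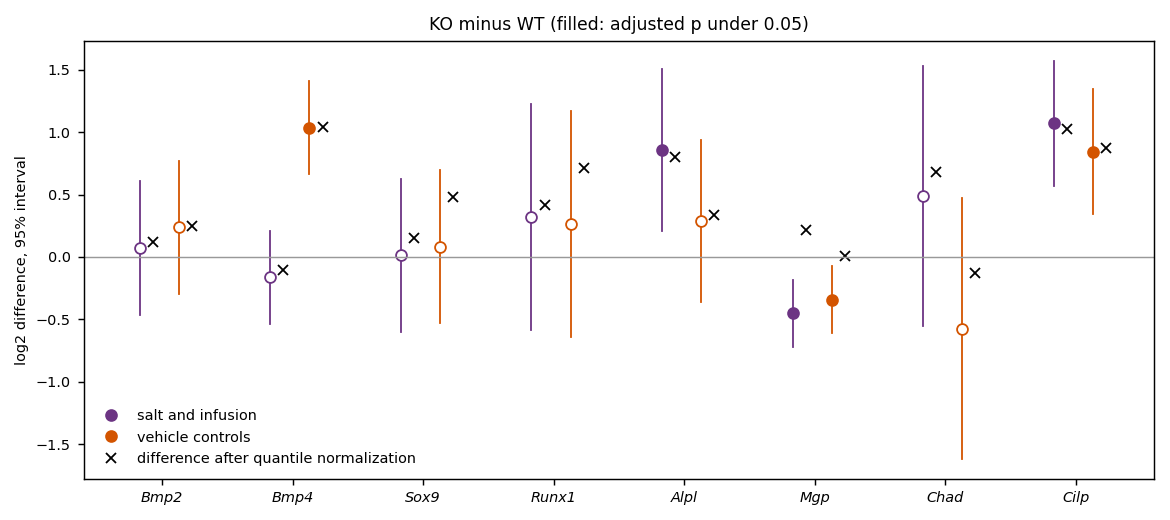
Log2 difference of knockout minus wild type (vertical axis) with its 95% interval for the 8 measured genes under NaCl and infusion and in vehicle controls; filled points had an adjusted p under 0.05 and crosses give the difference after quantile normalization. Cilp is higher in knockouts in both, Bmp4 in controls alone, and Mgp lies below 0 by the 75th percentile and at or above 0 after quantile normalization.

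Whether infusion acted differently in the genotypes was tested as the infusion difference in knockouts minus that in wild types. Limma called 0 of 8 genes on plain water, beside 0% of all genes, with 3 of 8 and 1532 of 23503 at an unadjusted p under 0.05. On NaCl it called 0 of 8, beside 0.0596% of all genes, with 1 of 8 and 2118 of 23503 at an unadjusted p under 0.05. The gene on NaCl was Bmp4, with infusion differences of 0.24 in knockouts and 1.41 in wild types (-1.18, 95% interval -1.70 to -0.65, adjusted p = 0.107). The adjusted p was 0.0377 (-1.38) without the second knockout array with NaCl alone and 0.0635 (-1.11) with slide as a block. On plain water the 3 were Bmp4 (-0.62, adjusted p = 0.689), Cilp (0.84, 0.682) and Alpl (0.93, 0.76). Bmp2 on NaCl differed by -0.10 (adjusted p = 0.966), and by -1.30 (0.0461) with slide as a block. On NaCl the knockout part of a blocked value rests on the third knockout array with infusion alone.

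Over the 8 groups the genes followed different orders. Runx1 separated cleanly on its brightest probe, with the 4 infused groups from -0.64 to -1.02 and no overlap with the 4 others, at -2.50 to -2.87. Within each set neighbouring groups overlapped. On its second probe the third wild-type array with infusion alone, at -2.71, lay among the arrays without infusion. Bmp4 had its lowest means in wild-type controls (4.49) and wild types on NaCl alone (4.33), which overlapped each other and lay apart from all other groups, at 5.21 to 5.74. Cilp and Mgp were ordered by genotype: the 4 knockout means of Cilp, 0.51 to 1.77, were above the 4 wild-type means, -0.40 to 0.20, though neighbouring groups overlapped, and those of Mgp, 8.56 to 8.62, were below the wild types' 8.94 to 9.11 on this scaling, an order that the quantile-normalised genotype differences do not keep. Alpl was highest in both infused knockout groups (1.63 and 1.43) and lowest in wild-type controls and wild types on NaCl (-0.21 and -0.26), and only the step between knockout and wild-type controls was free of overlap.

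Across the 24 arrays, which share slides and treatments, Sox9 and Runx1 went together (Pearson r = 0.88) and both ran against Bmp2 (r = -0.82 and -0.78). Alpl went with Runx1 (0.77) and with Cilp (0.69), and Chad with no other member above 0.36. Among 15884 tested genes with a RefSeq symbol, those most like Runx1 were Adam8, Ptx3 and Lilrb4a (0.97 to 0.98). The nearest to Bmp4 was Smpd3 (0.94), to Sox9 Nt5dc2 (0.95), to Alpl Kctd11 (0.92), to Cilp Nid1 (0.92), to Bmp2 Rictor (0.91), to Mgp Synrg (0.96) and to Chad Syt9 (0.58).

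Related genes moved in both directions. The lists of related genes and cell markers were chosen with earlier results of these data known, and some hold genes known from them to move. Their shares of called genes are therefore not independent of those results. Of 32 tested genes among 35 BMP ligands, receptors, mediators and antagonists, 3 were higher and 10 lower with infusion in knockouts on NaCl, 4 and 9 in knockouts on plain water, 4 and 3 in wild types on NaCl, and 7 and 3 in wild types on plain water. That is 40.6%, 40.6%, 21.9% and 31.2% of the list, beside 25.3%, 30.6%, 32.9% and 25.9% of all tested genes. Gdf6, a BMP-family ligand, rose in all 4, by 1.92, 2.06, 4.26 and 2.51 in that order (adjusted p at most 0.00924). Fst, which encodes follistatin, a secreted inhibitor of activins and some BMPs, rose by 1.37, 1.53, 2.12 and 2.04 (at most 0.00951), and Bmp7 fell by 1.64, 0.85, 1.30 and 1.65 (at most 0.0276). Gdf6 was well above background on 23 of 24 arrays and Bmp7 on 22. Some of their wild-type sizes rest on signals near background. Mean Gdf6 was -4.15 with NaCl alone, and mean Bmp7 was -4.48 with NaCl and infusion and -4.71 with infusion alone. The medians of this list were -0.27, -0.28, -0.16 and -0.14.

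Of 19 tested cartilage matrix and chondrocyte genes among 24, 4 were higher and 2 lower in knockouts on NaCl, 8 and 3 in knockouts on plain water, 7 and 2 in wild types on NaCl, and 6 and 2 in wild types on plain water, with medians of -0.22, -0.48, -0.06 and 0.09. The shares called were 31.6%, 57.9%, 47.4% and 42.1%, beside 25.3%, 30.6%, 32.9% and 25.9% of all tested genes. Prg4, which encodes lubricin, rose by 3.05, 3.92, 3.40 and 3.83 (adjusted p at most 0.000123), and Acan, which encodes the cartilage proteoglycan aggrecan, by 1.59, 1.06, 1.84 and 2.14 (at most 0.00425). Of 21 bone matrix and osteoblast genes tested among 26, 3 were higher and 5 lower, 3 and 6, 6 and 4, and 6 and 3 in the same order, with medians of -0.05, -0.28, 0.09 and 0.19. The shares called were 38.1%, 42.9%, 47.6% and 42.9%, against the same shares of all genes. Spp1, the gene of smallest p in this list, rose by 5.37, 6.07, 5.52 and 6.52 (at most 0.000466). It was well above background on 13 of 24 arrays, so these sizes rest on signals near background without infusion. Tnfrsf11b, which encodes osteoprotegerin, the decoy receptor that restrains osteoclasts, rose by 2.61, 2.66, 2.66 and 2.57 (at most 0.00083). The small leucine-rich proteoglycans osteomodulin (Omd) and osteoglycin (Ogn) fell in all 4, Omd by 2.41, 2.03, 1.98 and 1.90 (at most 0.0047) and Ogn by 1.78, 1.54, 1.70 and 1.87 (at most 0.00171). Of 19 tested genes, among 21, of phosphate handling, pyrophosphate and calcification inhibition, 4 were higher and 3 lower, 3 and 3, 4 and 3, and 4 and 3, with medians of 0.07, 0.17, 0.16 and 0.12. The shares called were 36.8%, 31.6%, 36.8% and 36.8%, beside the 25.3%, 30.6%, 32.9% and 25.9% of all tested genes. Fbn1, which encodes fibrillin-1, rose by 0.91, 0.74, 0.97 and 0.82 (at most 0.000984), and Fetub, a relative of the calcification inhibitor fetuin-A, fell by 1.46, 1.16, 0.85 and 1.22 (at most 0.043). The gene of fetuin-A itself, Ahsg, went the other way in its group means. In the same order these were 2.60 with infusion against 2.25 without it, 2.63 against 1.79, 2.80 against 2.04 and 2.36 against 1.74.

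**Figure D4:**
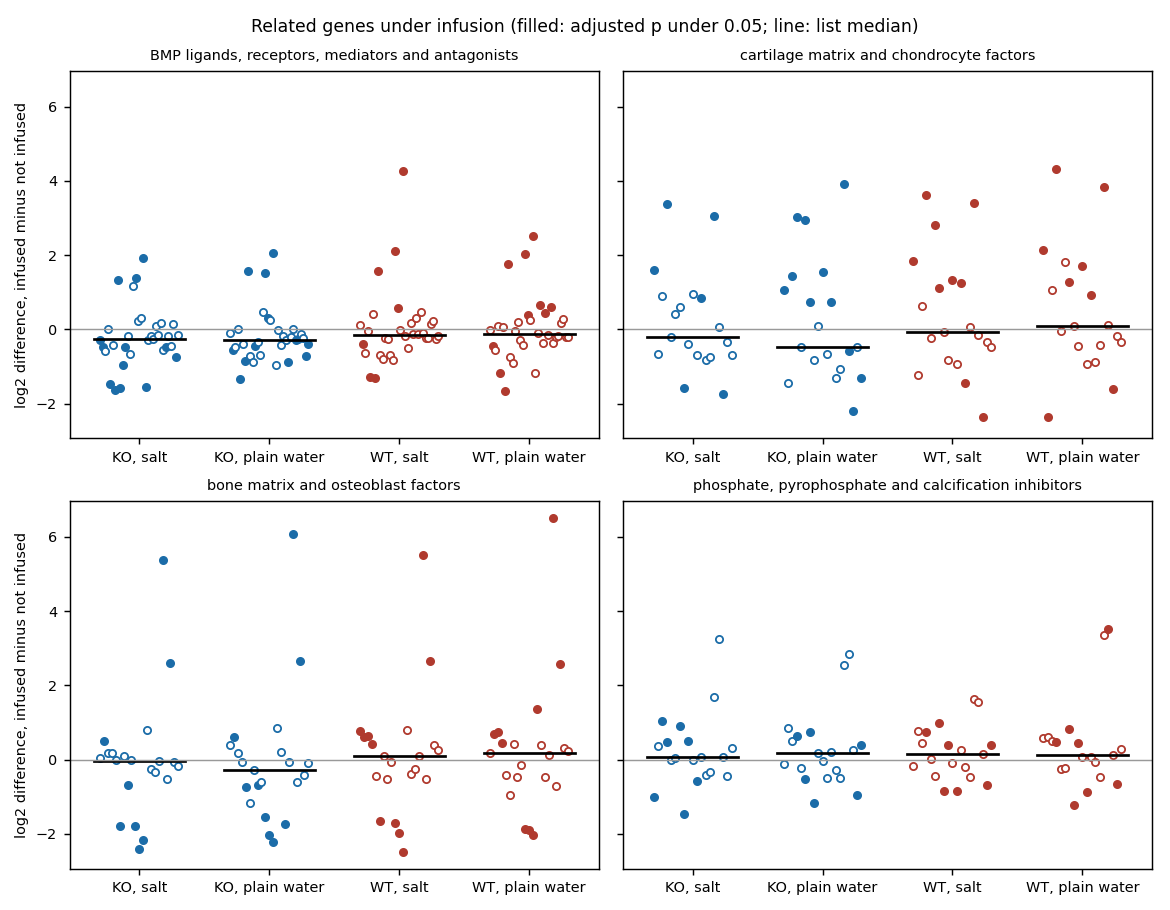
Log2 difference of infused minus non-infused mice (vertical axis) for each tested gene of 4 related lists in the 4 infusion comparisons; filled points had an adjusted p under 0.05 and bars are list medians. Each list holds filled points above and below 0, and its median stays between -0.48 and 0.19.

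Markers of other cells moved with infusion as well. Of 6 macrophage markers, 5 were higher in knockouts on NaCl, 5 in knockouts on plain water, 5 in wild types on NaCl and 6 in wild types on plain water, and none lower, beside 25.3%, 30.6%, 32.9% and 25.9% of all tested genes. Their summed level, in multiples of the 75th percentile, was 117 to 136 in knockouts with NaCl and infusion, against 62.1 to 67.9 with NaCl alone, and 85.2 to 183 in knockouts with infusion alone, against 60.1 to 71.1 in their controls. In wild types it was 78.0 to 113 with NaCl and infusion, against 38.6 to 46.5 with NaCl alone, and 57.8 to 121 with infusion alone, against 33.2 to 48.0 in controls. Csf1r and Lgals3, the brightest of the 6, weigh most in this sum. The lowest infused array of each genotype was the third with infusion alone (85.2 in knockouts, 57.8 in wild types). Runx1 was lowest among infused arrays on this array in wild types (-2.00), but in knockouts on infusion-alone array 2 (-1.18, against -1.04 on array 3). Sox9 was lowest on this array in knockouts (-2.19), but in wild types on array 2 with NaCl and infusion (-1.82, against -1.65). Alpl on the same array was among the higher values in knockouts (1.89) and the lowest in infused wild types (-0.07). Leaving out both arrays was chosen after these values were seen, so a larger Runx1 difference in wild types follows from the choice and supports nothing. It left 5 genes called in knockouts and 4 in wild types on plain water, Alpl being added in wild types (0.87, adjusted p = 0.047). Macrophages' part in the Runx1 result was not tested. Of 6 fibroblast markers, 5, 3, 4 and 3 were lower in the same order and none higher. Their summed level was 315 to 402 in knockouts with NaCl and infusion, against 585 to 694 with NaCl alone, and 411 to 527 in knockouts with infusion alone, against 581 to 701 in controls. In wild types it was 261 to 352 with NaCl and infusion, against 530 to 579, and 306 to 415 with infusion alone, against 454 to 564. Their part in the results was not tested either.

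Of 9 markers of cartilage tissue, 6 were tested, with 1 higher and 1 lower in knockouts on NaCl, 3 and 1 in knockouts on plain water, 3 and 2 in wild types on NaCl, and 2 and 1 in wild types on plain water. In that order 33.3%, 66.7%, 83.3% and 50% of the 6 were called, beside 25.3%, 30.6%, 32.9% and 25.9% of all tested genes. Their summed level was 3.19 to 3.52 in knockouts with NaCl and infusion, against 1.85 to 2.29, and 2.23 to 2.64 in knockouts with infusion alone, against 1.85 to 2.11. In wild types it was 6.14 to 6.21 with NaCl and infusion, against 2.66 to 3.06, and 4.61 to 8.45 with infusion alone, against 2.14 to 2.96. Acan made up most of this sum on infused arrays, at 63.6% to 91.2%, against 37.2% to 52.2% without infusion, while Snorc fell in all 4 comparisons, by 1.73, 2.20, 2.35 and 1.61 (adjusted p at most 0.0266). The cartilage genes Matn1 and Cnmd were well above background on 0 arrays, Col2a1 on 16 and Acan on 24. Of 6 bone markers, Sp7 and Dmp1 were above background on 0 arrays and Bglap on 1, and of 3 tested 1, 2, 1 and 1 were lower with infusion and none higher. Endothelial markers were higher in 0, 1, 3 and 2 of 5 and smooth muscle markers lower in 1, 3, 0 and 1 of 6, while fat markers were lower in 0, 1, 0 and 0 of 4, skeletal muscle markers in 1, 0, 0 and 0 of 3 and T cell markers in 0 of 4 throughout.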

How the data were processed

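RNA from 24 aorta samples was hybridised to 1-colour Agilent arrays with Cy3, per the labels' protocols. The intensity used was the scanner's processed signal, from which background had been subtracted, per the file headers, and which was not scaled across arrays. Feature Extraction is given as 10.7.1.1 by the headers and as 9.5.1.1 by the submitters' processing notes. The intensity values the authors deposited in processed form served as an alternative. Their sorted columns agree within 0.00121 log2 units, as quantile normalization leaves them, and any other step is not given in the sources used here.

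Over all arrays 2910 outlier spots were left out and 0 were saturated, and repeated spots were averaged per probe. Each array's 75th percentile over non-control spots was subtracted on the log2 scale. The filter kept 33374 probes, those well above background on every array of some group and with values on 2 or more arrays of each group. The brightest probe stood for each of 23503 genes, and 27235 probes were named through RefSeq accessions. A single model with 8 group means gave 12 comparisons (lmFit and eBayes, limma 3.58.1, R 4.3.3), with p-values adjusted by Benjamini-Hochberg over all genes at a threshold of 0.05. The code was run on simulated data for infusion in wild types on plain water only. The simulated arrays had no slide effect, so that run says nothing about slides. Plots used matplotlib 3.10.9 in Python 3.11.15. The precision is limited by 3 arrays per group.

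Groups follow the labels. For wild types on NaCl, titles and source names number the replicates differently, and the source names' numbers were used. Same-numbered arrays did not deviate together (correlations of -0.45 to 0.26), so numbers do not pair samples. The genes named are the 10 members, up to 4 genes of smallest p in each list, list genes given for their level and the 3 nearest genes of each member. The members, lists, comparisons and rules were chosen with earlier results of these data known, and some lists hold genes known from them to move. Alternatives were quantile and normexp (offset 50) scaling, the authors' values, other filters and probe rules, slide and replicate blocks, single slides, only the compared groups, and single arrays left out. One alternative, without array 3 of the infusion-only group of either genotype, was chosen after seeing the data.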

Additional observations from a re-analysis of the deposited data

How the results depend on the processing

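Of the recomputed counts of called members, 191 stayed within 1.5 times the reported count and 22 did not. The tally includes the comparisons of NaCl with plain water and both genotype differences of infusion. There the reported count was 0, and a recount of 0 was taken as unchanged. The tally therefore does not measure how stable the calls are. For infusion in wild types on plain water, 3 became 0 with slide as a fixed block, 1 with slide as a random block (correlation within a slide 0.48) and 1 with only the compared groups fitted, and 3 to 4 leaving out single arrays. For knockouts on plain water, 5 became 3 with only the compared groups, and 3 to 5 leaving out single arrays. For wild types on NaCl, 5 became 3 with no filter on dim probes and 3 with slide as a fixed block, and 2 to 5 leaving out single arrays. For knockouts on NaCl, 4 became 3 to 5 leaving out single arrays. The genotype count in controls of 3 became 1 with slide as a random block and 1 to 3 leaving out single arrays. Under NaCl and infusion 3 became 1 with quantile normalization, 1 with the authors' values and 0 with slide as a random block, and 2 to 3 leaving out single arrays. The genotype difference of infusion on NaCl had 1 call in place of 0 with slide as a fixed block (Bmp2), and 0 to 1 leaving out single arrays. The blocked Bmp2 call rests on the third knockout array with infusion alone. The cause of these shifts was not tested.

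Over all genes, the 6086 calls in wild types on plain water became 261 with a fixed slide block, 769 with a random one, 1237 with only the compared groups and 9405 without array 3 of both infusion-only groups, and the 7202 in knockouts on plain water became 2390 with only the compared groups. The 8737 genotype calls in controls became 1986 with slide as a random block, and the 6711 under NaCl and infusion 2362, and 11812 with normexp. With slide as a fixed block the genotype difference on NaCl had 1968 calls in place of 14, that on plain water 46 in place of 0, and NaCl during infusion in knockouts 271 in place of 1. The counts of 1968 and 271 rest on the third knockout array with infusion alone, which alone joins the knockout slides.

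Among called differences, those of Mgp turned sign: knockouts minus wild types was 0.0080 in controls and 0.21 under NaCl and infusion after quantile normalization, and 0.0075 and 0.21 with the authors' values, none of them called. Differences that were not called also changed sign under some alternatives, for example Sox9 between genotypes in controls (-0.37 to 0.49) and Chad with infusion in wild types on plain water (-0.25 to 0.90). With the replicate number as a block, which does not pair these samples, the infusion counts were 4 in knockouts on NaCl, 5 in knockouts on plain water, 4 in wild types on NaCl and 3 in wild types on plain water, and 2 in each genotype comparison. The infusion call lost was that of Alpl in wild types on NaCl (adjusted p = 0.0613). Each group has 3 arrays, and signals near background limit Runx2 and Ibsp.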
